A study of Caenorhabditis elegans with 15 samples.

Results

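Whole adult Caenorhabditis elegans labelled as double knock-outs of gld2 and ccf1 were compared with adults labelled as double knock-outs of gld2 and parn1, by RNA counts per gene. Both sides were chosen by label alone and make up 6 of the 15 libraries of the series, 3 named gld2-ccf1 and 3 named gld2-parn1. All 6 carry the gld2 knock-out, so the sides differ by label in the second knock-out only. No alleles are named, and nothing says that replicates came from separate cultures, so p-values measure only the spread between these libraries. Worms had been picked by hand 24 h after the middle of the fourth larval stage, their RNA extracted with Trizol, ribosomal RNA removed with a kit designed for mammals, and strand-specific libraries made. The other 9 libraries, 3 each of wild type (wt), the single knock-out gld2 and gld2-ccr4, entered the estimate of the spread. Levels in wt and gld2, and at some genes in gld2-ccr4, are given as reference points.

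The poly(A) tail of an mRNA influences how long the mRNA lasts and how well it is translated, and in the germ line, where transcription pauses in late oocytes, tail length is a main means of control. GLD-2 is a cytoplasmic poly(A) polymerase that lengthens the tails of germline mRNAs. Deadenylases do the opposite: CCF-1 is the worm CAF1/POP2 protein, a catalytic subunit of the CCR4-NOT complex, and PARN-1 belongs to the family of poly(A)-specific ribonucleases and is known in the worm germ line for trimming the ends of piRNAs, the small RNAs bound by the Piwi protein PRG-1.

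Library totals ran from 28.1 to 38.4 M counts in gld2-ccf1 and from 34.7 to 36.6 M in gld2-parn1. Levels below are counts per M of the library total (CPM) after TMM scaling, and changes are log2 fold changes of gld2-ccf1 against gld2-parn1 from edgeR's quasi-likelihood test, with a standard error (SE) and a p adjusted over all tested genes. Across genes, which are not independent replicates, log2 CPM correlated at 0.980 to 0.983 within a genotype and 0.948 to 0.959 between them. The library gld2-ccf1 replicate 2 stood apart, with 14.3% of its counts in nuclear ribosomal RNA against 1.39% and 1.15% in replicates 1 and 3, and 3.72% in mitochondrial genes against 7.36% and 7.59%. Ribosomal RNA also took 6.80% of gld2-parn1 replicate 3. The column names carry track numbers, and gld2-ccf1 replicates 1 and 3 and gld2-parn1 replicate 1 have the later ones. Ratios given below for the later tracks thus rest on 1 gld2-parn1 library. Those for the earlier tracks rest on 1 gld2-ccf1 library, replicate 2, the one with 14.3% ribosomal RNA. What a track number stands for is not stated. Defining genes of muscle (myo-3), intestine (elt-2), neurons (unc-104), germ cells (pgl-1), oocytes (rme-2) and sperm (gsp-3) were detected in all 6 libraries, whereas the larval cuticle gene dpy-7 did not exceed 0.131 CPM and 2 of the markers, rol-6 and med-1, had too few counts to be tested.

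The genes named in the labels were examined first. Transcripts of ccf-1 (WBGene00000369, WBcel235 chromosome III, 11918828 to 11920237) were not reduced in the libraries labelled gld2-ccf1. They stood at 47496, 25346 and 15544 CPM in gld2-ccf1 replicates 1 to 3 and at 22.7, 27.5 and 27.6 CPM in gld2-parn1, a log2 difference of 10.15 (SE 0.61 and adjusted p = 6.21e-07). All 3 gld2-ccf1 libraries lay far above the range in gld2, 28.3 to 36.7 CPM, and in wt, 69.3 to 91.3 CPM, and ccf-1 alone held 4.97%, 2.15% and 1.65% of their counts. Its neighbour znf-593, looked at after its values were seen, did not share the excess: it stood at 13.8, 15.3 and 17.04 CPM against 36.8, 35.4 and 30.7 and fell (-1.15, SE 0.12, adjusted p = 8.84e-07).

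Transcripts of parn-1 (WBGene00010734, chromosome V, 12692486 to 12695255) stood at 62.2, 64.3 and 55.2 CPM in the libraries labelled gld2-parn1 and at 25.2, 29.5 and 30.3 CPM in gld2-ccf1. The groups did not overlap, and parn-1 was lower in gld2-ccf1 (-1.10, SE 0.10, adjusted p = 6.95e-08), while gld2 stood at 48.1 to 55.4 CPM, reaching the lower end of gld2-parn1, and wt at 46.4 to 52.5 CPM. Counts of gld-2 (WBGene00001596, chromosome I, 6369748 to 6386194) overlapped, at 51.6, 80.6 and 47.1 CPM in gld2-ccf1 and 46.5, 53.0 and 61.2 in gld2-parn1 (0.16, SE 0.17, adjusted p = 0.524), all below the 185 to 247 CPM of wt. The deadenylase gene ccr-4 (WBGene00000376, chromosome IV, 12361542 to 12371852) rose modestly, from 279, 288 and 279 CPM in gld2-parn1 to 357, 449.8 and 405 in gld2-ccf1 (0.52, SE 0.07, adjusted p = 1.55e-05). A deletion within a gene can leave counts from the rest of it, so counts alone do not tell if the protein is made. The source of the ccf-1 counts, far above those of gld2 and wt, was not tested. Both genotypes are called by their labels.

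The sides differed at many genes. Of 16888 tested genes, 3370 (20.0%) were called higher in the libraries labelled gld2-ccf1 and 2897 (17.2%) lower at an adjusted p under 0.05, and for 8391 (49.7%) the 3 values of one side all lay above the 3 of the other. Changes of at least 2-fold were called for 950 higher and 1533 lower genes. Among genes averaging at least 1 CPM, changes of 8-fold or more were called for 75 higher and 24 lower. The 2-fold counts carry no such limit on level, so their balance cannot be set directly against that at 8-fold. The median log2 fold change of all tested genes was -0.0045, and the median size of a called change was 0.79. The shares of 20.0% higher and 17.2% lower are the background for the counts called in each list below.

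**Figure D1:**
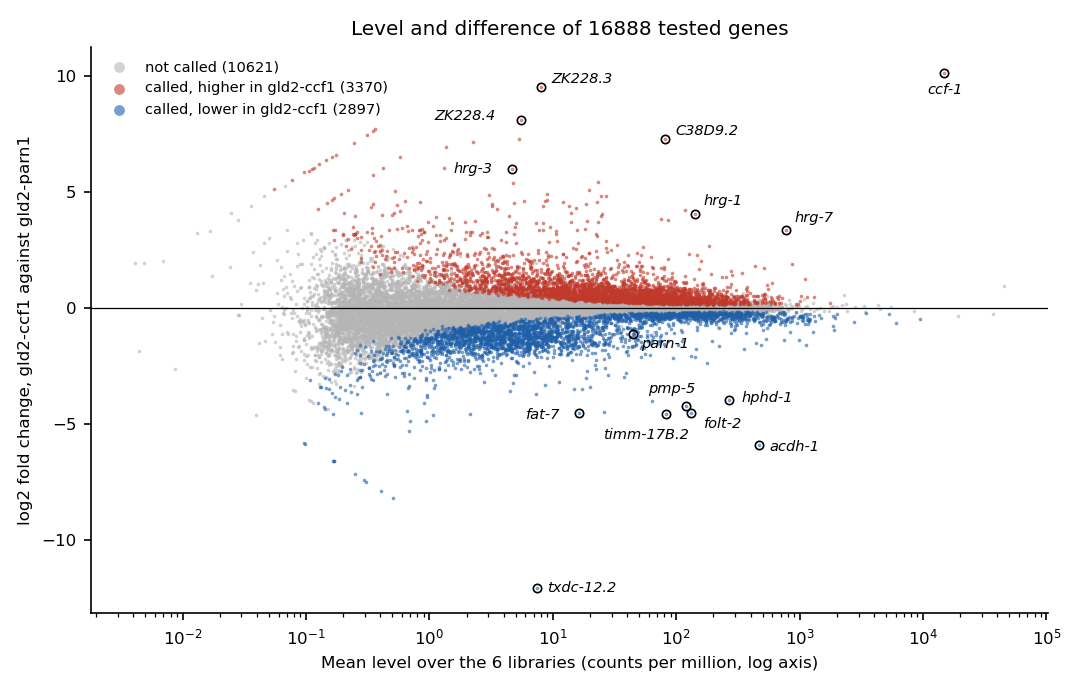
Each point is 1 of 16888 tested genes; the horizontal axis is its mean level over the 6 libraries in CPM (log axis), the vertical axis its log2 fold change in gld2-ccf1 against gld2-parn1. Red genes were called higher and blue ones lower at an adjusted p under 0.05. The gene ccf-1 stands alone at the upper right. At the bottom is txdc-12.2, which has no counts in gld2-ccf1 and a fitted value that depends on the prior count. The propionate breakdown genes acdh-1 and hphd-1 and the transporter gene pmp-5 lie far below 0.

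Genes of propionate breakdown and of the methionine cycle held some of the largest differences, and most of those called were lower in the libraries labelled gld2-ccf1. Of 29 such genes 15 fell and 7 rose, with a median log2 fold change of -0.36. Worms degrade propionate by a vitamin B12-dependent route or, when B12 is short, through a shunt whose first enzyme is the acyl-CoA dehydrogenase ACDH-1. Counts of acdh-1 (WBGene00016943, chromosome I, 6497436 to 6499560) stood at 14.3, 17.1 and 15.4 CPM in gld2-ccf1 and at 984, 861 and 898 in gld2-parn1. Each of these 2 groups was tight, and the difference was 58.8-fold (-5.88, SE 0.90, adjusted p = 0.000485). The gld2 libraries at 614 to 719.7 and wt at 798 to 932 CPM lay on the side of gld2-parn1. The gld2-ccr4 libraries, which also enter the estimate of the spread, lay far apart at 477, 29.8 and 79.7 CPM. The later shunt enzymes fell too. The enoyl-CoA hydratase gene ech-6 stood at 156, 166 and 166 CPM against 606, 520.4 and 524 (-1.76, SE 0.15, adjusted p = 2.06e-06) and the hydrolase gene hach-1 at 105, 111 and 105 against 290.3, 269 and 283.9 (-1.399, SE 0.13, adjusted p = 1.07e-06). The dehydrogenase gene hphd-1 showed 33.98, 31.6 and 32.4 CPM against 547, 463 and 493 (-3.94, SE 0.28, adjusted p = 1.75e-06), and alh-8, the last enzyme, fell by 0.63 on the log2 scale (adjusted p = 0.000826).

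Regulators and partners of the shunt moved with it. The nuclear hormone receptor gene nhr-68, which activates the shunt together with NHR-10, stood at 10.6, 8.72 and 10.6 CPM in gld2-ccf1 and 31.3, 23.8 and 27.3 in gld2-parn1 (-1.46, SE 0.17, adjusted p = 2.14e-06), whereas nhr-10 itself was slightly higher (0.51, SE 0.12, adjusted p = 0.00211). The receptor gene nhr-114, whose product protects the germ line when B12 is low, was at 3.66, 2.85 and 3.63 CPM against 36.3, 31.97 and 41.05 (-3.42, SE 0.29, adjusted p = 1.74e-06). The transporter gene pmp-5 had 12.2, 11.9 and 12.6 CPM against 233, 209 and 234.97 (-4.20, SE 0.31, adjusted p = 2.69e-06) and the folate transporter family gene folt-2 10.7, 9.39 and 12.5 against 262, 254 and 240.1 (-4.52, SE 0.27, adjusted p = 3.49e-07). For each of these 4 lower genes the sides were separate, with gld2 between them. In the canonical B12-dependent route the carboxylase subunit gene pcca-1 was higher by 0.35 (adjusted p = 0.0134), a call lost at 0.28 without gld2-ccf1 replicate 2 and at 0.30 without gld2-parn1 replicate 2, and pccb-1 did not pass (0.12, SE 0.11, adjusted p = 0.427).

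In the methionine cycle sams-1, the main S-adenosylmethionine synthetase gene, fell from 125, 96.4 and 135 CPM in gld2-parn1 to 44.9, 46.1 and 31.7 in gld2-ccf1 (-1.54, SE 0.27, adjusted p = 0.000932), and the methionine sulfoxide reductase gene msra-1 from 98.0, 103 and 95.7 to 24.0, 22.4 and 26.2 (-2.03, SE 0.40, adjusted p = 0.00257). In gld2-ccr4 msra-1 was at 56.2, 18.4 and 16.4 CPM. Unlike sams-1 and msra-1, genes of transsulfuration, which leads from homocysteine to cysteine, were higher in gld2-ccf1. The cystathionine gamma-lyase genes cth-2 and cth-1 rose (0.999, SE 0.14, adjusted p = 5.4e-05, and 1.397, SE 0.25, adjusted p = 0.000236), as did the cystathionine beta-synthase gene cbs-1 (0.81, SE 0.15, adjusted p = 0.000358). The methionine synthase gene metr-1 was not called (-0.12, SE 0.07, adjusted p = 0.187). Without gld2-parn1 replicate 2, and likewise with scaling on somatic genes, 4 of the 29 genes rather than 7 were called higher. The median log2 ratio of the list was -0.38 among libraries of the later tracks and -0.27 among the earlier.

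Fatty acid desaturase genes split. The stearoyl-CoA desaturase gene fat-7 stood at 1.35, 1.47 and 1.32 CPM in gld2-ccf1 and 29.7, 31.2 and 33.4 in gld2-parn1, a fall of 22.8-fold (-4.51, SE 0.61, adjusted p = 0.000188). In gld2-ccr4 fat-7 was at 13.9, 3.28 and 2.77 CPM. The other 2 delta-9 desaturase genes were higher in every gld2-ccf1 library than in any gld2-parn1 library: fat-6 at 552, 435 and 521 CPM against 209.9, 165 and 147 (1.53, SE 0.17, adjusted p = 2.18e-05) and fat-5 at 85.6, 71.4 and 63.5 against 33.8, 26.04 and 22.5 (1.42, SE 0.17, adjusted p = 1.05e-05). The polyunsaturated branch rose as well, with fat-3 at 395, 320.4 and 379 CPM against 142, 151 and 133 (1.36, SE 0.08, adjusted p = 1.22e-10), fat-1 at 0.54 and fat-2 at 0.58 on the log2 scale (adjusted p = 2.24e-05 and 0.00122). Their regulators nhr-80, sbp-1 and nhr-49 were each higher, by 0.82, 0.58 and 0.44 (adjusted p = 0.00178, 0.00182 and 7.89e-05).

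Across the whole list of fatty acid and sphingolipid genes, 51 of 135 rose and 27 fell (median 0.10, or 0.15 without gld2-ccf1 replicate 2). Among the risers were pod-2, the acetyl-CoA carboxylase gene, at 1391, 1892 and 1391 CPM against 652, 595 and 717 (1.25, SE 0.11, adjusted p = 2.32e-07), and lipl-1, a lysosomal lipase gene, at 48.6, 43.0 and 64.2 against 2.6, 1.48 and 1.35 (4.83, SE 0.48, adjusted p = 1.65e-05). In gld2-ccr4 lipl-1 was at 19.2, 52.2 and 46.4 CPM. The acyl-CoA dehydrogenase gene acdh-2, close in name to acdh-1 and counted from another locus, dropped from 49.7, 37.0 and 61.6 CPM to 2.93, 2.14 and 1.64 (-4.47, SE 0.69, adjusted p = 0.000506).

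Heme-responsive genes, a group picked out after its values were seen, were among the largest increases. C. elegans makes no heme of its own and takes it up through HRG transporters. The gene hrg-1, for a heme transporter of acidic organelles in the intestine, stood at 259, 266 and 285 CPM in gld2-ccf1 against 14.04, 12.1 and 21.9 in gld2-parn1 (4.08, SE 0.22, adjusted p = 5.03e-08), with 8.98 to 10.8 CPM in gld2 and 7.94 to 12.1 in wt. The plasma membrane importer gene hrg-4 was at 21.0, 18.2 and 24.4 CPM against 5.3, 4.13 and 4.23 (2.22, SE 0.23, adjusted p = 4.43e-07). The secreted heme carrier gene hrg-3 was at 8.14, 8.35 and 10.9 CPM against 0, 0 and 0.441 (5.999, SE 0.85, adjusted p = 9.6e-05). In gld2-parn1 only replicate 3 had hrg-3 counts, and without it the fitted value was 11.4, which depends on the prior count. All 3 genes were higher in each gld2-ccf1 library than in any of the gld2-parn1, gld2 or wt libraries.

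The aspartic protease gene hrg-7, whose product signals heme status between tissues, reached 1428, 1303 and 1501 CPM against 111, 139 and 162 (3.36, SE 0.19, adjusted p = 1.52e-07), and mrp-5, the intestinal heme exporter gene, 646, 713 and 663 against 178, 191 and 208 (1.81, SE 0.09, adjusted p = 8.27e-11). In neither gene did the sides overlap. The heme-binding family gene hrg-2 also rose, from low counts (1.92, SE 0.44, adjusted p = 0.00189). Of other hrg genes hrg-10 fell (-0.96, SE 0.16, adjusted p = 8.81e-05), and hrg-5 and hrg-9 were not called, with adjusted p of 0.757 and 0.623. A pair of iron genes, chosen in the same way, rose: the ferritin gene ftn-2 (244 to 275 CPM against 50.5 to 69.2; 2.05, SE 0.11, adjusted p = 1.08e-10) and the metal transporter gene smf-3 (1.71, SE 0.25, adjusted p = 3.34e-05). The other ferritin gene, ftn-1, was not called (0.75, SE 0.45, adjusted p = 0.213).

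**Figure D2:**
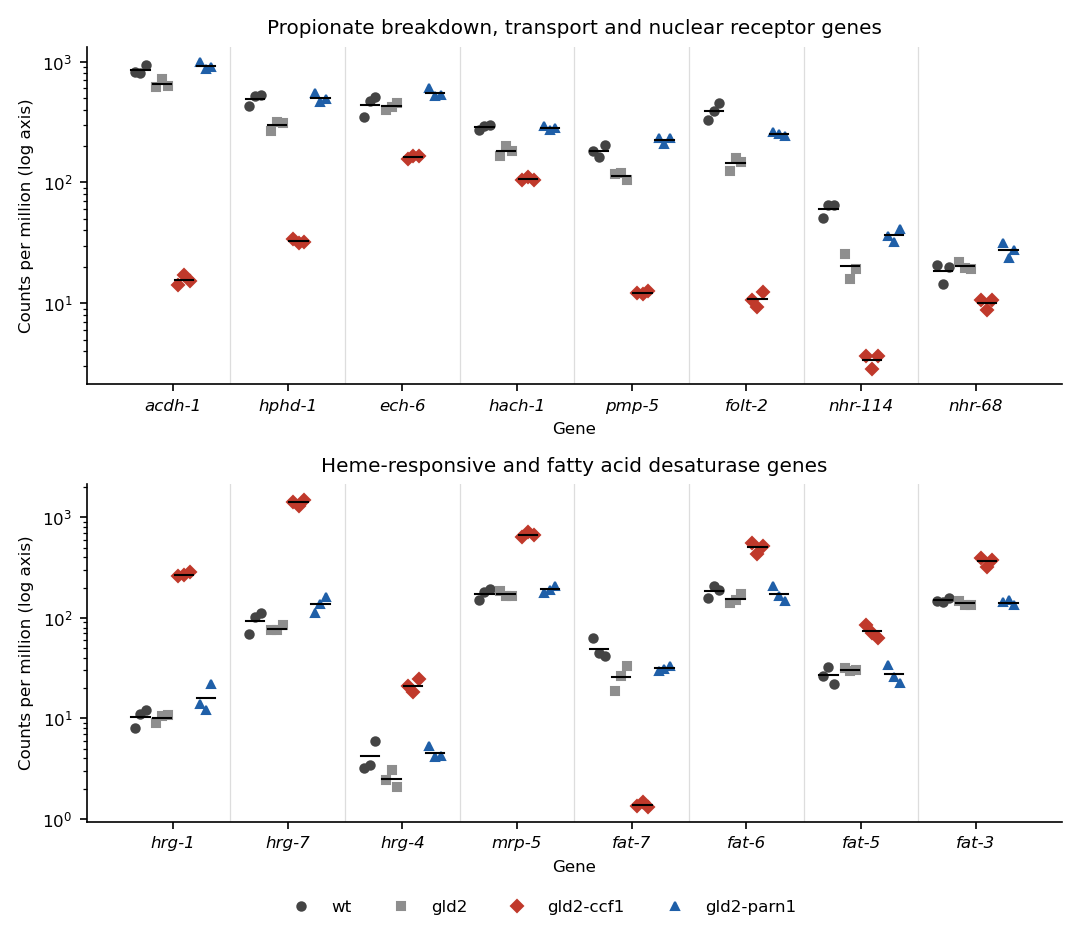
Levels in CPM (log axis) of 16 genes in the 3 libraries of wt, gld2, gld2-ccf1 and gld2-parn1; each symbol is a library and each black bar the mean of 3. In the upper panel gld2-ccf1 is the lowest genotype at each of the 8 genes, and in the lower panel it is the highest at each gene but fat-7.

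Some genes were nearly silent on one side. Only txdc-12.2 (thioredoxin domain family, WBGene00018656, chromosome X, 2074450 to 2075944) had 0 counts in all 3 libraries of a genotype and at least 1 CPM in all 3 of the other: it had none in gld2-ccf1 and 15.3, 14.3 and 14.8 CPM in gld2-parn1, at least 487-fold more, set against 3 counts over the gld2-ccf1 group. It reached only 0 to 0.0256 CPM in gld2, against 6.18 to 7.11 in wt, and had no counts in the 3 gld2-ccr4 libraries either. Far higher in gld2-parn1 than in gld2 or wt was timm-17B.2, a mitochondrial import translocase homologue, at 124, 136 and 213 CPM against 6.99, 6.84 and 6.5 in gld2-ccf1 (-4.54, SE 0.17, adjusted p = 2.98e-12), with 11.3 to 13.4 in gld2 and 8.67 to 10.4 in wt. Its paralogue timm-17B.1 was not called (-0.11, SE 0.07, adjusted p = 0.218).

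The reverse pattern, near silence in gld2-parn1, was seen at several genes toward the right end of chromosome V. The gene ZK228.3 (V, 18458241 to 18461250) had 19.5, 15.4 and 12.9 CPM in gld2-ccf1 and 0, 0.0529 and 0 in gld2-parn1, and its neighbour ZK228.4 had 12.4, 10.9 and 9.95 against 0, 0.106 and 0, with adjusted p of 7.44e-13 and 3.06e-12. Both were present in gld2 (13.8 to 17.2 and 21.0 to 21.9 CPM) and in wt (11.5 to 13.8 and 14.2 to 16.97 CPM), so gld2-parn1 was the side that departed from them. C38D9.2 (V, 17567150 to 17571742) stood at 149.6, 193 and 141 CPM in gld2-ccf1, at 0.945, 1.48 and 0.588 in gld2-parn1 and at 180.4 to 204 in gld2, but at only 0.232 to 0.386 in wt (7.31, SE 0.22, adjusted p = 1.01e-11). The F-box gene fbxa-192 (V, 17640672 to 17650527), a member of a large family of ubiquitin ligase adaptors, showed 46.2, 45.8 and 50.04 CPM against 1.181, 1.46 and 2.35 (4.84, SE 0.18, adjusted p = 4.52e-13). On chromosome I the scramblase family gene scrm-4 was also low in gld2-parn1, with 31.2, 36.9 and 36.8 CPM in gld2-ccf1 against 2.55, 2.3 and 2.85 (3.77, SE 0.19, adjusted p = 3.74e-11). It stood at 26.7 to 29.8 CPM in gld2, but at only 0.905 to 1.82 in wt, and at 5.89, 4.04 and 4.53 in gld2-ccr4.

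Other genes of large change rose from low levels in gld2-parn1, gld2 and wt alike. The glucocerebrosidase gene gba-2, a lysosomal enzyme gene, went from 0.892, 0.635 and 1.62 CPM to 50.2, 53.6 and 31.5 (5.43, SE 0.46, adjusted p = 1.44e-06). The gene dct-17, first listed as a target of the insulin pathway factor DAF-16, stood at 41.8, 36.7 and 36.0 CPM against 0.814, 0.82 and 1.71 (5.11, SE 0.41, adjusted p = 3.51e-07), and T19C9.8 at 11.4, 9.86 and 10.6 against 0.0787, 0.106 and 0 (7.31, SE 0.92, adjusted p = 3.85e-05). Of the genes with the smallest adjusted p, citk-1, the citron kinase homologue, was at 210.5, 252 and 240.03 CPM against 72.5, 74.2 and 74.5 (1.67, SE 0.08, adjusted p = 3.13e-11).

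Among the lower genes the smallest adjusted p belonged to ddo-3, a D-aspartate oxidase gene, with 6.97, 6.42 and 6.6 CPM in gld2-ccf1 against 50.8, 51.3 and 47.2 in gld2-parn1 (-2.90, SE 0.08, adjusted p = 9.7e-15). The peroxidase gene skpo-1 had 49.8, 50.6 and 60.9 CPM against 234, 239 and 223 (-2.11, SE 0.08, adjusted p = 4.52e-13), and tbh-1, which encodes the octopamine-making tyramine beta-hydroxylase, 50.2, 49.03 and 55.4 against 211, 217 and 211 (-2.05, SE 0.08, adjusted p = 8.54e-13). The uncharacterized gene C44B7.5 fell likewise (-2.15, SE 0.08, adjusted p = 2.48e-13). At all 4 genes the gld2 libraries lay within or above the range of gld2-parn1, as with 49.2 to 55.9 CPM for ddo-3 and 244 to 265 for tbh-1.

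Sperm genes were lower in the libraries labelled gld2-ccf1. Because whole animals were sequenced, fewer cells of a type and less RNA per cell cannot be told apart here or below. Of the 31 major sperm protein genes listed, whose products form the cytoskeleton of the crawling sperm, 26 had enough counts to be tested. Of those 16 fell and 1, msp-38, rose (median -0.97). Summed over the list, levels were 180, 220 and 241 CPM in gld2-ccf1, 418, 352 and 505 in gld2-parn1, 279 to 309 in gld2 and 0.797 to 6.28 in wt. The sums of the sides were thus separate, with gld2 between them and wt near 0. A typical member, msp-31, stood at 17.8, 20.1 and 24.1 CPM against 56.5, 50.7 and 61.4 (-1.44, SE 0.21, adjusted p = 6.86e-05). Without gld2-parn1 replicate 3 the number called lower was 9 rather than 16, at a median of -0.78. The msp genes are nearly identical in sequence, and how reads matching several genes were counted is not stated, so single members are uncertain.

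Other sperm lists went the same way. All 9 tested genes of the small nspd sperm peptides were called lower (1 of 10 was not tested), with a median of -1.50; nspd-2 had 10.9, 8.14 and 13.8 CPM against 28.4, 27.5 and 29.2 (-1.37, SE 0.21, adjusted p = 4.98e-05). Of 59 further sperm genes tested out of 73 listed, 37 fell and 2 rose, with a median of -1.21. Their summed level was 632, 718 and 705 CPM in gld2-ccf1 against 1038, 1051 and 1168 in gld2-parn1, and 395 to 461 in wt. The sperm phosphatase genes gsp-3 and gsp-4 fell by 2.5-fold and 2.22-fold (adjusted p = 5.75e-05 and 2.89e-05), with gsp-3 at 20.9, 21.1 and 24.4 CPM against 55.9, 48.8 and 61.7. The sperm myosin VI gene spe-15 and the gene spe-26, both needed to form spermatids, were lower too (-1.04, SE 0.13, adjusted p = 5.14e-06, and -1.52, SE 0.15, adjusted p = 3.47e-07). Both Argonautes of sperm small RNAs, alg-3 and alg-4, fell (-1.32, SE 0.30, adjusted p = 0.00506, and -1.39, SE 0.23, adjusted p = 0.000529). The 2 exceptions were the transcription factor gene spe-44, which acts early in sperm differentiation, at 0.35 (adjusted p = 0.0114) and swm-1, a protease inhibitor gene, at 0.63 (adjusted p = 0.00802). Without gld2-parn1 replicate 1 spe-44 was not called (0.32), and without gld2-parn1 replicate 3 neither was (0.30 and 0.51). Among libraries of the later tracks the median log2 ratios of the 3 lists were -0.91, -1.20 and -1.04, and among the earlier ones -0.94, -1.70 and -1.09.

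**Figure D3:**
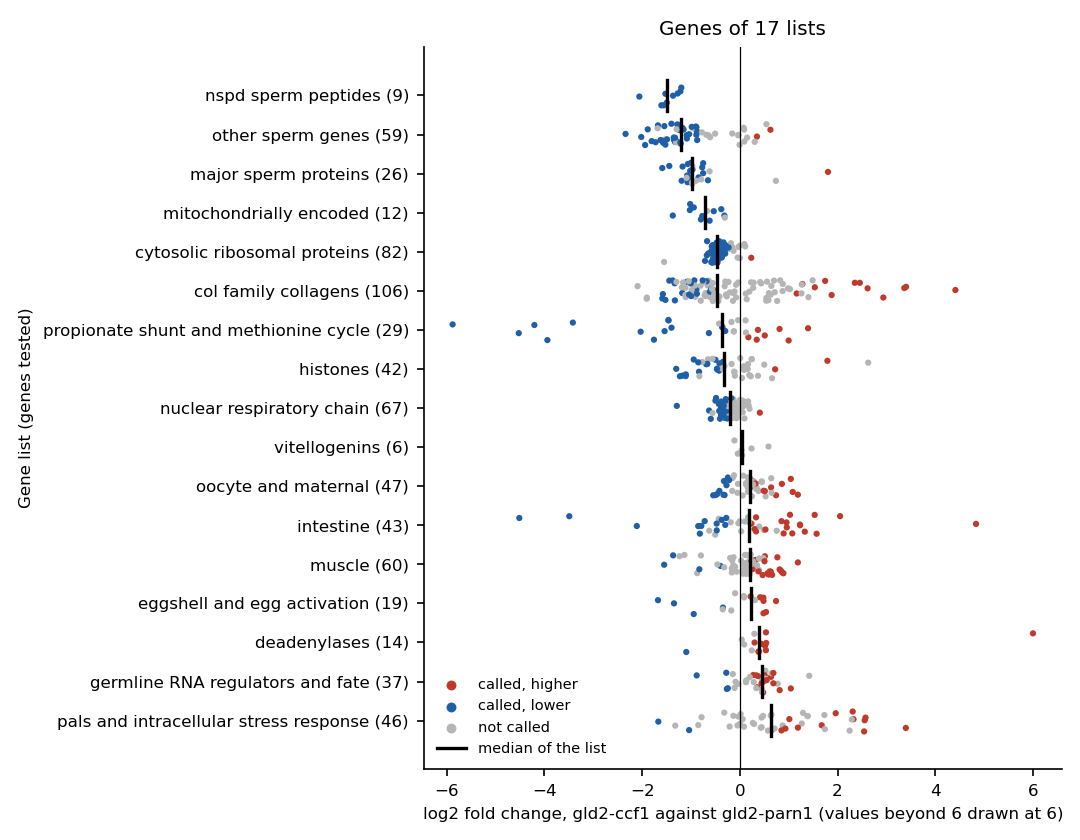
Log2 fold changes, gld2-ccf1 against gld2-parn1, of the tested genes of 17 lists; each point is a gene, red if called higher, blue if called lower and gray if not called, and each black bar is the median of a list. The value of ccf-1 is drawn at 6, the end of the axis. The sperm and ribosomal protein lists lie left of 0 and the germline fate list mostly right of it.

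Regulators of germ cell fate leaned higher in the libraries labelled gld2-ccf1. Of 37 such genes 14 rose and 4 fell, at a median of 0.45. The RNA-binding protein gene puf-8, which holds back germ cell dedifferentiation, stood at 121, 143 and 131 CPM against 69.0, 72.8 and 82.3 (0.82, SE 0.09, adjusted p = 1.71e-06), and fbf-1 and fbf-2, which keep germline stem cells undifferentiated, rose by 0.51 and 0.35 (adjusted p = 7.39e-05 and 0.000427). The sex determination genes tra-3, tra-2 and fem-3 rose as well, by 0.69, 0.37 and 0.64 (adjusted p = 5.91e-06, 5e-05 and 5.41e-05). The median of the list was 0.20 without gld2-ccf1 replicate 2, with 12 higher and 4 lower, 0.29 among libraries of the later tracks and 0.56 among the earlier. The number called lower was 2 without gld2-ccf1 replicate 1 or gld2-parn1 replicate 2 and 1 with scaling on somatic genes.

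Of 5 mRNAs linked to GLD-2 in earlier work, 3 rose: tra-2, the fertilization gene egg-1 (333, 479 and 344 CPM against 263, 263 and 299.8; 0.48, SE 0.11, adjusted p = 0.00355) and the oocyte maturation gene oma-2 (197, 382 and 203 against 126, 129 and 175; 0.86, SE 0.25, adjusted p = 0.0183). The translational repressor gene gld-1 stood at 173, 369 and 166 CPM against 115, 119 and 179, overlapping, and did not pass (0.78, SE 0.30, adjusted p = 0.069). The uridylyltransferase gene pup-2 had 137, 353 and 143 CPM against 137, 156 and 205 and was not called (0.34, SE 0.35, adjusted p = 0.484). In oma-2, gld-1, pup-2 and lin-41 (272, 561 and 288 against 167, 167 and 209 CPM; 1.04, SE 0.25, adjusted p = 0.00691), gld2-ccf1 replicate 2 was the highest of the 6 libraries. Without it the values were 0.30 for egg-1, 0.30 for gld-1, -0.24 for pup-2, 0.63 for lin-41 and 0.48 for oma-2. The call of oma-2 was lost without gld2-parn1 replicate 1 or 2, at 0.78 and 0.79, and gld-1 passed without gld2-ccf1 replicate 1 or 3 or gld2-parn1 replicate 3, at 0.96, 0.98 and 1.01.

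Genes of the oocyte and of the eggshell moved in both directions. Of 47 oocyte and maternal genes 12 rose and 10 fell (median 0.21, or -0.0093 without gld2-ccf1 replicate 2). The 12 and 10 were 25.5% and 21.3% of the list, against 20.0% and 17.2% of all tested genes. The sum of the list was 12762, 16965 and 13550 CPM in gld2-ccf1 and 13743, 14094 and 14953 in gld2-parn1. The sides overlapped, and gld2-ccf1 replicate 2 was the highest of the 6 libraries. With scaling on somatic genes 6 were called lower. The germline fate gene pie-1 and the maternal transcription factor gene skn-1 were higher (1.08, SE 0.17, adjusted p = 5.2e-05, and 1.19, SE 0.27, adjusted p = 0.00572, or 0.79 without gld2-ccf1 replicate 2), while the centrosome genes spd-5 and spd-2 were lower (-0.49, SE 0.06, adjusted p = 7.16e-06, and -0.31, SE 0.05, adjusted p = 0.000142). The abundant yolk receptor gene rme-2 was level, at 1049, 1324 and 1184 CPM against 1201, 1215 and 1255 (-0.05, SE 0.07, adjusted p = 0.668). Of 19 eggshell genes 8 rose and 4 fell. The egg receptor gene egg-2 and the chitin synthase gene chs-1 rose by 0.48 and 0.48 (adjusted p = 1.13e-05 and 9.5e-05), whereas gna-2, which makes a precursor of chitin, dropped from 201, 187 and 188 CPM to 89.4, 96.0 and 114 (-0.94, SE 0.08, adjusted p = 5.35e-08). Another that fell, spe-11, encodes a factor supplied by the sperm (-1.35, SE 0.26, adjusted p = 0.000578). Without gld2-parn1 replicate 2 the number called higher was 5, and without gld2-ccf1 replicate 3 the number called lower was 2.

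In meiosis 22 of 57 genes rose and 8 fell, among them the synaptonemal complex genes syp-1 (70.2, 78.9 and 74.9 CPM against 44.01, 46.5 and 43.3; 0.74, SE 0.07, adjusted p = 3.12e-07) and syp-2 (0.48, SE 0.08, adjusted p = 0.000181), and on the lower side him-17 (-0.32, SE 0.06, adjusted p = 0.000169). Without gld2-ccf1 replicate 1, 5 were called lower. With scaling on somatic genes the counts were 10 and 2, and with RLE scaling 13 and 13. Of 58 genes of germ granules and germline small RNA, 13 rose (7 with scaling on somatic genes) and 17 fell. The 13 and 17 were 22.4% and 29.3% of the list, against 20.0% and 17.2% of all tested genes. The granule genes meg-1 (124, 137 and 136 CPM against 52.3, 53.7 and 69.3; 2.27-fold, adjusted p = 1.46e-08) and meg-4 (0.75, SE 0.08, adjusted p = 1.37e-06) and the Piwi gene prg-1 (0.42, SE 0.08, adjusted p = 0.000251) rose. The helicase gene glh-1 (351, 369.5 and 380.4 CPM against 628, 555 and 640.1; -0.73, SE 0.08, adjusted p = 1.1e-06), the double-stranded RNA-binding gene rde-4 (-0.71, SE 0.07, adjusted p = 3.99e-07) and, of the granule scaffold, pgl-2 and pgl-3 (-0.36, SE 0.07, adjusted p = 0.000395, and -0.36, SE 0.07, adjusted p = 0.000427) fell, while pgl-1 was not called (0.12, SE 0.08, adjusted p = 0.241).

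Early zygotic genes rose in 11 of 30 cases and fell in 5 (4 of 34 listed were not tested), but the count was unsteady: it was 7 higher without gld2-parn1 replicate 3, and 3 lower without any single one of gld2-ccf1 replicates 1 and 2 and gld2-parn1 replicates 1 and 2. The median of 0.51 was -0.06 without gld2-ccf1 replicate 2, 0.33 without gld2-ccf1 replicate 1 and 0.26 without gld2-parn1 replicate 3. The best supported riser was lin-26, an epidermal fate gene (79.7, 97.1 and 77.6 CPM against 47.6, 51.1 and 52.9; 0.75, SE 0.10, adjusted p = 1.07e-05). Of 74 cell cycle and replication genes 13 rose (7 with scaling on somatic genes), led by orc-1 of the origin recognition complex (0.72, SE 0.06, adjusted p = 5.74e-08), and 19 fell (11 with that scaling), led by rfc-1 of the clamp loader (-0.48, SE 0.06, adjusted p = 5.3e-06). The 13 and 19 were 17.6% and 25.7% of the list, against 20.0% and 17.2% of all tested genes.

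Genes for the machinery of tail length other than ccf-1 and parn-1 changed by small amounts. Of 14 deadenylase genes 9 rose, ccf-1 among them, and only parn-1 fell (median 0.39, or 0.23 without gld2-ccf1 replicate 2, with 7 higher, and 0.31 and 0.61 among libraries of the later and earlier tracks). The PAN complex genes panl-2 and panl-3 stood at 138, 169 and 148 CPM against 92.7, 104.3 and 116 and 128, 151 and 121 against 84.8, 90.9 and 101 (0.54, SE 0.09, adjusted p = 0.000132, and 0.54, SE 0.09, adjusted p = 0.000164). The PARN-1 paralogue gene parn-2 was not called (0.09, SE 0.08, adjusted p = 0.446). Of 9 genes for poly(A) and poly(U) polymerases and their partners, 3 rose and none fell: the nuclear polymerase gene pap-1 (0.40, SE 0.07, adjusted p = 0.000183), the uridylyltransferase gene pup-3 (0.58, SE 0.12, adjusted p = 0.000946) and rnp-8, a GLD-2 partner (0.76, SE 0.25, adjusted p = 0.0344). The call of rnp-8 was lost without gld2-ccf1 replicate 2, at 0.40, or without gld2-parn1 replicate 1 or 2, at 0.66 and 0.73.

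Of 17 genes for poly(A)-binding, CPEB and cap-binding proteins, 3 rose and 1 fell, the CPEB gene cpb-2 (-1.58, SE 0.22, adjusted p = 2.11e-05), or 3 fell without gld2-ccf1 replicate 2. Of 27 decapping and decay genes 6 rose, led by the decapping enzyme gene dcap-2 (0.49, SE 0.09, adjusted p = 0.00023), and 3 fell, or 5 without gld2-ccf1 replicate 2 and 1 without gld2-parn1 replicate 2. The 6 and 3 were 22.2% and 11.1% of the list, against 20.0% and 17.2% of all tested genes. With scaling on somatic genes 3 rose and none fell.

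Most genes for the cytosolic ribosome were lower. Of 82 ribosomal protein genes 69 fell and 1 rose, a call lost without gld2-ccf1 replicate 1 or 3 or gld2-parn1 replicate 2 or 3, with a median of -0.46, and leaving out any one library left between 65 and 72 lower. Among libraries of the later and earlier tracks the medians were -0.55 and -0.34. Their summed level was 43213, 48908 and 44496 CPM in gld2-ccf1 against 64499, 59781 and 62375 in gld2-parn1, and 60440 to 62690 in gld2. The gene rpl-27 stood at 551, 568 and 598 CPM against 987, 919.96 and 906 (-0.71, SE 0.07, adjusted p = 1.62e-07), and rla-0, for the stalk protein P0, at 2148, 2239 and 2258 against 3461, 3244 and 3314 (-0.59, SE 0.08, adjusted p = 8.09e-06). The paralogues rpl-11.1 and rpl-11.2 differed: the first fell from 1500.1, 1466 and 1379.5 CPM to 824, 960.5 and 937 (-0.68, SE 0.08, adjusted p = 3.23e-06), and the second was not called (-0.13, SE 0.12, adjusted p = 0.423).

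Genes of mitochondrial respiration were lower in both genomes. Of 67 nuclear genes of the respiratory chain 30 fell and 1, cox-10 of heme A synthesis, rose (median -0.20), with the ATP synthase gene atp-2 at 1604, 1808 and 1542 CPM against 2204, 2136 and 2301 (-0.42, SE 0.07, adjusted p = 5.59e-05). With scaling on somatic genes 15 fell. The number that rose was 3 without gld2-ccf1 replicate 1 and 2 without replicate 2 or 3. Of 12 protein-coding genes of the mitochondrial genome 10 fell and none rose (median -0.72). Their sum was 11919, 8513 and 12430 CPM in gld2-ccf1, lowest in replicate 2, against 19213, 18804 and 16331 in gld2-parn1 and 15440 to 16950 in gld2. In wt the sum was 9465 to 11850 CPM, overlapping gld2-ccf1 and below gld2-parn1 and gld2. The median was -0.54 without gld2-ccf1 replicate 2, and -0.69 and -1.11 among libraries of the later and earlier tracks.

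Histone genes leaned lower: of 42 tested 16 fell and 2 rose (median -0.33, or -0.11 without gld2-parn1 replicate 3, and -0.41 and -0.078 among libraries of the later and earlier tracks). The histone gene his-37 stood at 21.4, 20.9 and 20.6 CPM against 50.8, 51.6 and 52.5 (-1.30, SE 0.09, adjusted p = 4.09e-09), while his-16 was at 53.97, 57.9 and 62.7 against 15.3, 18.1 and 17.02 (1.79, SE 0.15, adjusted p = 1.84e-07), next to 76.2 to 93.1 in gld2. Copies of a histone are nearly identical, which makes single members uncertain, and most histone mRNAs lack a poly(A) tail. Of 40 genes of chromatin silencing and dosage compensation 9 rose, led by lin-15B (1.13, SE 0.11, adjusted p = 3.13e-07), and 12 fell, led by lin-61 (-0.54, SE 0.08, adjusted p = 4.22e-05), or 6 with scaling on somatic genes. Of 31 proteasome and other protein degradation genes 8 rose and 5 fell, 25.8% and 16.1%, against 20.0% and 17.2% of all tested genes. The number that rose was 4 or 5 without any one of gld2-ccf1 replicate 2 and gld2-parn1 replicates 1 to 3. The number that fell was 1 or 2 without gld2-ccf1 replicate 1 or gld2-parn1 replicate 1 or 2.

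**Figure D4:**
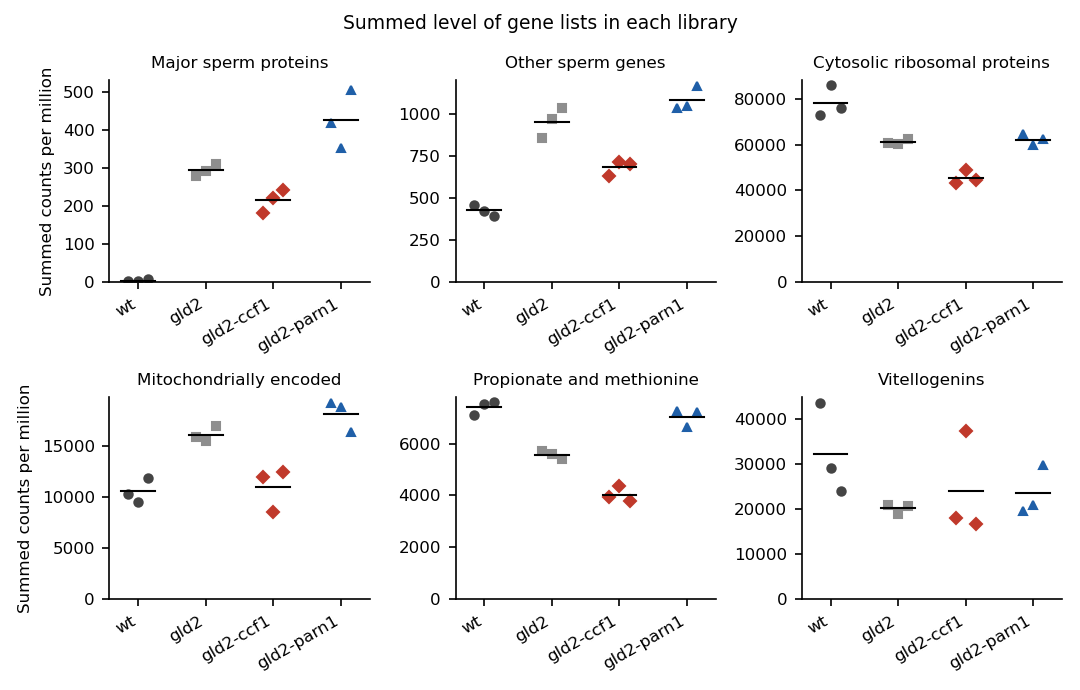
Summed level of 6 gene lists in CPM (linear axes from 0) in the 3 libraries of wt, gld2, gld2-ccf1 and gld2-parn1; each symbol is a library and each bar the mean. The gld2-ccf1 and gld2-parn1 sums are separate in all panels but that of the vitellogenins, where gld2-ccf1 replicate 2 is the highest of the 6 libraries.

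Intestinal genes moved both ways, 18 higher and 12 lower of 43. The intestinal master regulator gene elt-2 rose from 6.61, 4.68 and 5.998 CPM to 16.2, 12.9 and 14.4 (1.33, SE 0.23, adjusted p = 0.000169), and ifo-1, an organizer of intestinal intermediate filaments, from 25.8, 19.4 and 27.2 to 58.7, 56.1 and 55.5 (1.23, SE 0.13, adjusted p = 5.31e-07). The intermediate filament genes diverged, with ifc-1 at 2.58, 2.6 and 2.08 CPM against 27.5, 24.7 and 29.02 (-3.49, SE 0.24, adjusted p = 8.59e-09) and ifc-2 at 109, 123 and 104.4 against 58.1, 52.4 and 63.3 (0.96, SE 0.09, adjusted p = 1.86e-07). The aspartic protease genes asp-2, asp-3 and asp-5 fell by 0.72, 0.79 and 0.82 on the log2 scale (adjusted p = 2.29e-07, 2.87e-05 and 5.14e-05). None of the 6 vitellogenin genes, which encode yolk, was called by edgeR, DESeq2 called none either, and the count at an unadjusted p under 0.05 was 0. Without the 4 of all 15 libraries over 4% ribosomal RNA, which leaves out gld2-ccf1 replicate 2 and gld2-parn1 replicate 3, edgeR called 2 of the 6 lower, at a median of -0.19. Their sums were 18147, 37524 and 16660 CPM in gld2-ccf1 against 19679, 20940 and 29933 in gld2-parn1.

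Of 60 muscle genes 18 rose and 4 fell (median 0.20). At the attachments that anchor the contractile lattice, pat-3, the beta-integrin gene, stood at 225, 226 and 233 CPM against 137, 126 and 138 (0.77, SE 0.06, adjusted p = 3.57e-08), and its partner unc-112 at 112, 111 and 106 against 60.8, 60.6 and 65.6 (0.81, SE 0.07, adjusted p = 1.22e-07). The body wall myosin gene myo-3 rose (0.89, SE 0.13, adjusted p = 6.76e-05), and the troponin T gene tnt-3 fell (-1.55, SE 0.19, adjusted p = 7.04e-06). Without gld2-parn1 replicate 2, 10 were called higher at a median of 0.13, and without gld2-ccf1 replicate 2 the median was 0.11. Of 81 neuronal genes 13 rose, among them the synaptobrevin gene snb-1 (0.87, SE 0.13, adjusted p = 5.23e-05) and the ankyrin gene unc-44 (0.78, SE 0.11, adjusted p = 4.05e-05), and 10 fell. The 13 and 10 were 16.0% and 12.3% of the list, against 20.0% and 17.2% of all tested genes. The number called lower was 6 without gld2-ccf1 replicate 2, and 4 without gld2-ccf1 replicate 3 or gld2-parn1 replicate 1.

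Of 106 tested col collagen genes (156 listed), which build the cuticle, 12 rose and 20 fell, with a median of -0.47 (-0.30 without gld2-parn1 replicate 1, and -0.35 and -0.27 among libraries of the later and earlier tracks). The abundant col-119 stood at 701, 569 and 419 CPM against 1994, 1439.8 and 1594 (-1.57, SE 0.17, adjusted p = 1.65e-05) and col-140 at 976, 888 and 689.97 against 1623, 1131 and 1344 (-0.68, SE 0.16, adjusted p = 0.00574). In the other direction col-133 had 22.5, 15.3 and 9.93 CPM against 1.1, 0.423 and 0.706 (4.41, SE 0.53, adjusted p = 2.18e-05). Of 31 named cuticle genes 3 rose and 2 fell, the latter 0 without gld2-ccf1 replicate 2 and 1 without any single gld2-parn1 library, and of 41 genes of the somatic gonad and basement membranes 11 rose (7 with RLE scaling and 6 with scaling on somatic genes) and 6 fell, the sheath cell innexin gene inx-8 lowest by p (-1.14, SE 0.09, adjusted p = 1.15e-08).

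Defence and stress genes had large single changes. Of 203 tested immune effector genes (340 listed) 41 rose and 39 fell, 20.2% and 19.2%, near the 20.0% and 17.2% of all tested genes. Their summed level was 5573, 5519 and 5554 CPM in gld2-ccf1 against 3967, 3794 and 3897 in gld2-parn1. The lysozyme gene lys-1 stood at 831, 752 and 809 CPM against 254, 219.8 and 242 (1.74, SE 0.11, adjusted p = 4.01e-09) and irg-7, a secreted intestinal immune regulator, at 751, 949.6 and 739 against 348, 377 and 419 (1.09, SE 0.11, adjusted p = 1.49e-06), while irg-4 was at 1.73, 1.55 and 1.4 against 13.8, 17.3 and 16.1 (-3.33, SE 0.29, adjusted p = 1.72e-07). Of 46 genes of the pals family and the intracellular pathogen response 13 rose and 2 fell (median 0.65), and 8 rose without gld2-ccf1 replicate 1. The number that fell was 1 without gld2-ccf1 replicate 2 or 3 or gld2-parn1 replicate 1 or 3. Among libraries of the later and earlier tracks the medians were 0.80 and 0.53. They include cul-6 and skr-3, parts of one ubiquitin ligase (1.68, SE 0.22, adjusted p = 1.05e-05, and 1.19, SE 0.17, adjusted p = 2.24e-05).

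Of 189 tested genes of oxidative stress, xenobiotic and metal response 49 rose and 26 fell. The glutathione transferase gene gsto-1, named after its values were seen, stood at 40.5, 46.2 and 54.01 CPM against 1.71, 2.22 and 4.47 (4.07, SE 0.30, adjusted p = 5.96e-08), and 2 cytochrome P450 genes went opposite ways: cyp-34A9 rose (3.22, SE 0.31, adjusted p = 5.71e-07) and cyp-35D1 fell (-3.18, SE 0.31, adjusted p = 2.96e-07). Of 63 heat shock and chaperone genes 19 rose, among them the small heat shock genes hsp-43 (73.7, 66.1 and 49.6 CPM against 18.8, 16.7 and 17.7; 1.83, SE 0.14, adjusted p = 9.11e-09) and hsp-17 (1.96, SE 0.24, adjusted p = 4.82e-06), and 11 fell. The number lower was 6 without gld2-ccf1 replicate 1, 7 without gld2-parn1 replicate 1 and 3 with scaling on somatic genes. In glycolysis and gluconeogenesis 10 of 28 rose, led by the phosphoenolpyruvate carboxykinase gene pck-1 (0.83, SE 0.10, adjusted p = 2.27e-06). Of the 5 that fell, the phosphofructokinase gene pfk-1.2 had the smallest p (-1.62, SE 0.20, adjusted p = 4.71e-06) and was at 0 to 0.0826 CPM in wt. The number lower was 3 without gld2-ccf1 replicate 1 or 3 or gld2-parn1 replicate 1, and with scaling on somatic genes 6 rose and 3 fell.

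The X chromosome differed from the autosomes in its balance of calls. Of 2176 tested X-linked genes 28.1% were called higher in gld2-ccf1 and 6.94% lower, with a median log2 fold change of 0.24. Of 14578 autosomal genes 18.8% were called higher and 18.7% lower, with a median of -0.035. Single autosomes ranged from 17.9% to 21.6% higher and from 15.8% to 21.2% lower. With the sperm and ribosomal protein lists left out, 2174 of the 2176 X-linked genes remained. The shares on X, then 28.2% and 6.95%, could therefore hardly change. Of the autosomal genes 14404 remained, with 2742 called higher and 2598 lower, against 2746 and 2729 of all 14578. The X median stayed between 0.18 and 0.30 in each fit without 1 library. With RLE scaling it was 0.176, against -0.102 on autosomes. With no filter it was 0.039 over 4228 X-linked genes, against 0 on autosomes. With DESeq2 it was 0 over 4227 X-linked genes, against -0.061 on autosomes. Genes are not independent replicates, and the difference between X and autosomes was not tested. By annotated class, 37 of 762 tested pseudogenes were called higher and 153 lower, against 3301 and 2695 of 15367 protein-coding genes.

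**Figure D5:**
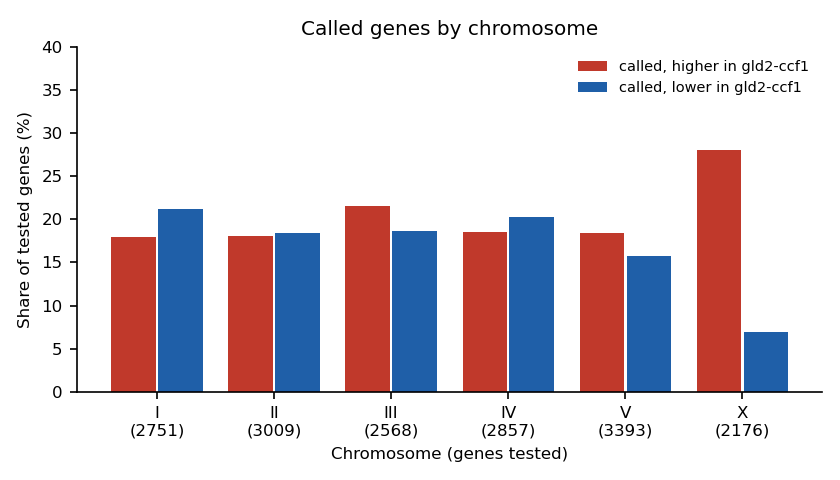
Share of tested genes called higher (red) and lower (blue) in gld2-ccf1 against gld2-parn1 on each nuclear chromosome, in percent, with the number of genes tested in parentheses. X has the largest share of higher and the smallest share of lower calls, 28.1% and 6.94%.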

How the data were processed

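RNA was measured in 15 libraries of whole worms. The deposited raw table holds whole-number counts per gene for 46739 genes, of which 0.155% of counts fell on genes without a record in the WBcel235 annotation used here. A normalized signal table, also deposited by the authors, equals the counts times 1 constant per library and was not used further. The submitters' processing notes name STAR 2.5.2b, Subread 1.4.6-p4 with featureCounts, DESeq2 1.18.1 and FastQC. The use of strand in counting and the handling of multiply matching reads are not given in the sources used here, so overlapping genes, antisense partners and members of near-identical families are uncertain.

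Counts were fitted with edgeR 4.0.16 (R 4.3.3): filterByExpr, TMM scaling and the quasi-likelihood test on all 15 libraries with genotype as the only term, and the contrast gld2-ccf1 against gld2-parn1 with Benjamini-Hochberg adjustment over 16888 genes. A call is an adjusted p under 0.05. The procedure was tested on simulated counts. Totals of 28.1 to 38.4 M counts set the precision. Replicate numbers did not pair the libraries. Log2 ratios within a set of tracks were taken after adding 0.1 CPM. Each set has only 1 library on one side, so these ratios cannot separate track from library. Genes were named by a rule: the 4 genes of the labels, the 12 largest called changes per direction with a mean of at least 5 CPM and groups that do not overlap, the 6 smallest p per direction, the 2 called members of smallest p per direction and the 2 most abundant members of each gene list, all members of lists of at most 6, and genes at 0 on one side. Many genes in the text lie outside this rule and were chosen after their values were seen. Gene lists, comparison and rule were all chosen with earlier results of these data known. No list was tested as a set. The alternatives were DESeq2 1.42.0, RLE scaling, scaling on somatic genes, other filters, and blocks for track or replicate number. Further ones were a fit of the 6 libraries alone, removal of ribosomal RNA genes and ccf-1, and leaving out libraries. Scaling on somatic genes used 281 genes of the muscle, intestine, neuron and cuticle lists. Its factor was each library's median ratio to the geometric mean of each gene.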

Additional observations from a re-analysis of the deposited data

How the results depend on the processing

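The fit of 15 libraries called 3370 genes higher and 2897 lower in gld2-ccf1. The alternatives in which all 6 libraries were kept gave 2413 to 3542 higher and 2434 to 3478 lower, the fewest of each with scaling on somatic genes (2413 and 2434), and no gene called in the fit of 15 libraries was called in the opposite direction in any alternative. The higher share of calls was 53.8%, against 45.6% with RLE scaling, 45.9% with DESeq2 and 49.8% with scaling on somatic genes. Fits without 1 library gave 2759 to 3167 higher and 2327 to 2636 lower, and without the 4 libraries over 4% ribosomal RNA (gld2-ccf1 replicate 2, gld2-parn1 replicate 3, wt replicate 1 and gld2 replicate 3) 2923 and 2391. With later tracks as a block, chosen after seeing the data, they were 3542 and 2905.

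With the replicate block the counts were 3284 and 2856. The numbers do not pair the libraries: deviations of same-numbered libraries correlated at 0.05, 0.02 and -0.10.

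Among the genes with values in the text, 4 lost their call with scaling on somatic genes and 4 in the fit of the 6 libraries alone. Without the 4 libraries over 4% ribosomal RNA 3 lost it and 2 gained one. With no filter 1 lost it, as did 1 with the replicate block. A call was gained by 1 each with RLE scaling, in the fit of the 6 libraries and with later tracks as a block. Among the same genes the sign turned in an alternative for 3, none of them called. Other tested genes were not checked for a turned sign. In fits without 1 library gld-2 ranged from -0.112 to 0.305, pup-2 from -0.241 to 0.579 and rme-2 from -0.129 to 0.0379. Without the 4 libraries over 4% ribosomal RNA the value was -0.0124 for gld-2 and -0.0701 for pup-2. The cause was not tested.

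Depth limits genes under about 1 CPM, for which few counts stand behind a value. With 3 libraries a side, a gene that was not called is not shown to be equal.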
